A study of Mus musculus with 8 samples.

Results

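The 43 genes described here encode the machinery that copies DNA, together with the E cyclins and the E2F transcription factors that drive entry into S phase. They were chosen by gene symbol, and all 43 were found among the 20943 genes of the table. Their RNA was measured in 8 malignant peripheral nerve sheath tumors (MPNST) of mice, sarcomas that arise in the Schwann cell lineage. All 8 carried Plp-CreERT with floxed alleles of Nf1, written Nf1(f/f), and of Cdkn2a, written Cdkn2a(f/f). The 5 PRC2 wildtype tumors had no further allele in the labels, and the 3 PRC2 loss tumors also carried Eed(f/f). The labels also give the genotype Nf1(-/-) and Cdkn2a(-/-) for every tumor, with Eed(-/-) added for PRC2 loss. Both groups thus shared the targeting of Nf1, which restrains Ras signalling, and of Cdkn2a, the locus of the cell cycle inhibitor p16INK4a and of p19ARF. Cre, driven by the Plp promoter and so active mainly in Schwann lineage cells, was switched on in every mouse with 0.4 mg tamoxifen given from postnatal day 0 to 3. Eed encodes one of the essential parts of PRC2, a Polycomb complex whose mark is methylation of lysine 27 on histone H3. The codes in the labels hold 3 wildtype and 2 PRC2 loss numbers: wildtype tumors 1 and 2 share one, as do wildtype tumors 3 and 4, and PRC2 loss tumors 2 and 3. Tumors with the same number may come from the same mouse; they were treated as independent, and the p-values are then too small. The values are log2 gene counts that the authors quantile-normalized, their depth is unknown, and a level is compared here only between tumors for the same gene.

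DNA replication is prepared in G1, when the origin recognition complex, Cdc6 and Cdt1 load the MCM helicase onto origins. In S phase Cdc45 and GINS join MCM to form the active helicase, DNA polymerases alpha, epsilon and delta make the new strands, and the clamp PCNA, loaded by replication factor C (RFC), holds them on DNA. Many of these genes are transcribed under E2F factors, which are restrained by the retinoblastoma proteins until cyclin-dependent kinases release them. E2f1 and E2f2 are activators, and E2f7 and E2f8 are repressors that E2F itself induces.

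Eed itself lay between 10.17 and 10.33 in wildtype and between 8.76 and 8.96 in PRC2 loss, without overlap (limma adjusted p = 0.00021). Each value covers the whole gene, floxed exons or not. The tumor medians over all genes lay between 8.463 and 8.467, and between 1822 and 3372 genes were listed at 0 in a tumor. None of 10 Schwann lineage markers was listed at 0 in any tumor, and 7 of the 10 rose and 1, Gap43, fell in PRC2 loss; the log2 of their summed level was 12.85 to 14.77 in wildtype and 16.76 to 17.44 in PRC2 loss. No member was listed at 0 in any tumor.

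Replication genes were lower in PRC2 loss tumors in every role. Of the 43 members 38 fell, none rose and 5 did not pass the test (limma, Benjamini-Hochberg adjusted p below 0.05 over all 20807 genes tested). Over all genes tested, 19.6% fell and 16% rose. In either direction 35.7% of all genes passed. All 43 differences were below 0, so none was higher at an unadjusted p below 0.05 either. The median log2 difference was -1.68, against -0.12 over all genes tested. Among the members 35 fell at least 2-fold, compared with 12.1% of all genes, and 18 fell at least 4-fold, compared with 5.73%. For 35 members every PRC2 loss tumor lay below every wildtype tumor, which held for 21.4% of all genes; no member had every PRC2 loss tumor above every wildtype tumor, which held for 16.9%. The 5 members that did not pass were Pola2, Prim2, Rfc2, Rrm1 and E2f2. In whole tumors fewer cycling cells and less RNA per cycling cell cannot be told apart.

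Scaling changed the size of this difference. Of 15 housekeeping genes 9 fell and none rose in PRC2 loss, with a median log2 difference of -0.61. Centring each tumor on those 15 genes moved the median of all genes up by 0.58, left 28 members lower (limma) with a median of -1.10, and gave 1614 genes lower (7.76%) and 7596 higher among all genes, in place of 4087 and 3337. The calls lost were Orc6, Mcm7, Gins4, Pola1, Prim1, Pole, Pold1, Rfc3, Rfc5 and Chaf1b.

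**Figure D1:**
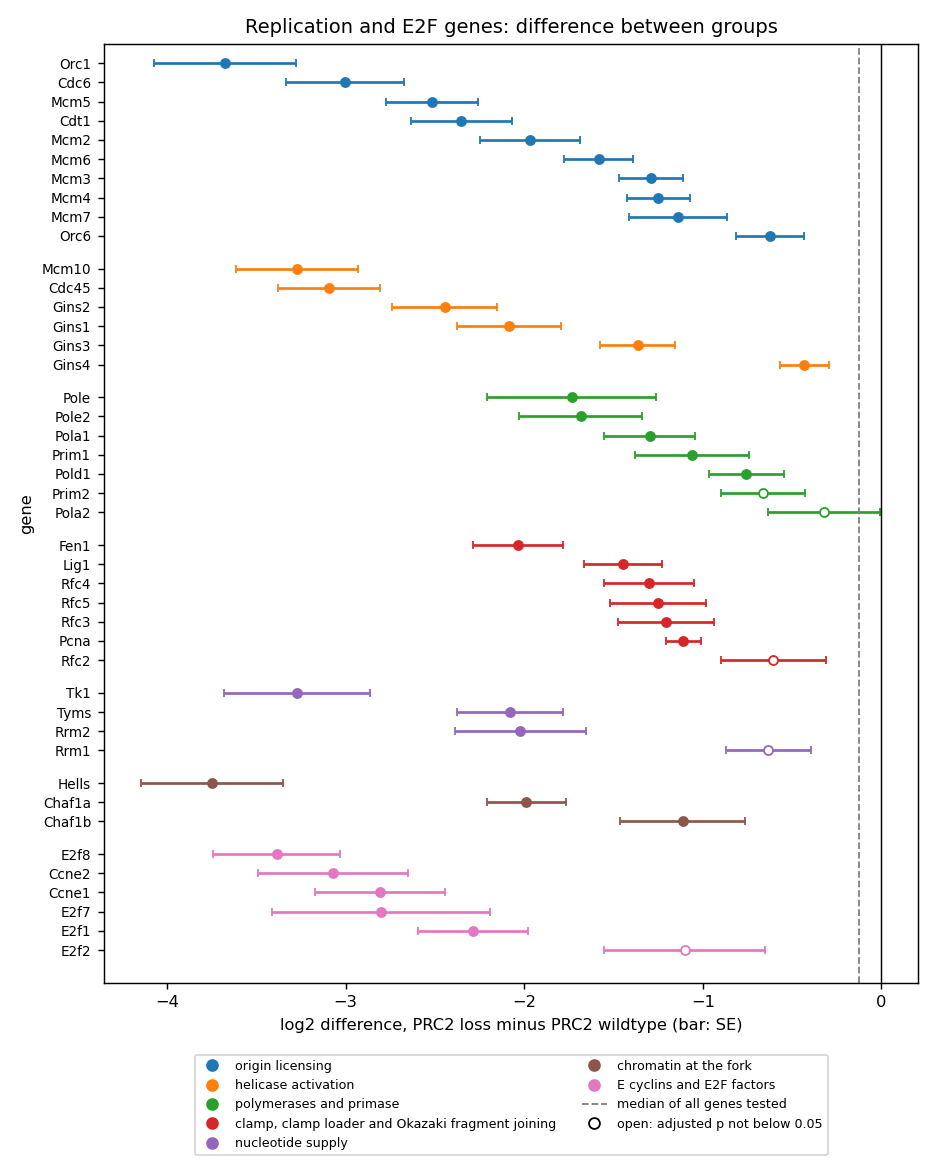
Each point is the log2 difference of 1 gene, PRC2 loss minus PRC2 wildtype, with its standard error, for the 43 members ordered by role. Filled points passed the test and the dashed line is the median of all genes tested, -0.12; the differences run from -3.75 for Hells to -0.32 for Pola2.

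Promoters of the members were searched for the core of the E2F site. RefSeq promoter sequences (GRCm38.p6, the assembly of mm10) were matched for 35 of the 43 members; Mcm4, Gins1, Gins2, Gins4, Prim2, Pole, Rfc2 and Ccne2 had none. The letters TTTCCCGC or TTTGGCGC, on either strand within 250 bases before the start, were found for 8 of the 35 members (22.9%) and for 407 of 27025 genes with a promoter (1.51%). By promoter rather than by gene the share was 427 of 32851 (1.30%). Many genes of this list are transcribed under E2F factors, so a high share was likely whatever these tumors show. Base composition was not matched, and the part of E2F in the lower levels was not tested. The 8 were Cdc6, Mcm5, Mcm6, Mcm7, Gins3, Pola1, Hells and E2f7. Their median log2 difference was -2.05, and that of the other 27 was -1.68. These medians were not tested against each other. The stretches below show where the match lies in 6 of them, each on the gene's own strand with the match in capitals. The start is that of the RefSeq transcript. In GENCODE M21 the genes Cdc6, Gins3 and Hells begin upstream of the stretch shown, so these 3 stretches lie inside the annotated gene, and those of Gins3 and Hells are shorter because the gene's own exon reaches into the window.
Mcm5, chr8:75109330-75109397, plus strand, match starting 149 bases before the start: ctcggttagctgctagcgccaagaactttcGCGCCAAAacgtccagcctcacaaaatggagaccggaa
Cdc6, chr11:98907983-98908050, plus strand, 138 bases before: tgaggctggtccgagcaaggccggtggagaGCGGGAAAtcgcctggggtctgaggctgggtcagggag
Gins3, chr8:95633507-95633536, plus strand, 41 bases before: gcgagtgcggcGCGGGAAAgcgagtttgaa
Pola1, chrX:93632256-93632323, minus strand, 138 bases before: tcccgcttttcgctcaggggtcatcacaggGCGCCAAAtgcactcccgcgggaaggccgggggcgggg
Hells, chr19:38930917-38930946, plus strand, 62 bases before: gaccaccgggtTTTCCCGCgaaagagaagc
E2f7, chr10:110745211-110745278, plus strand, 198 bases before: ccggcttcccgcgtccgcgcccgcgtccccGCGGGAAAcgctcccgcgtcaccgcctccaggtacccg
A match is a run of letters, not a measured binding site.

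All 10 origin licensing genes fell, with log2 differences from -3.67 to -0.62. Orc1, the largest and cell cycle regulated subunit of the origin recognition complex, stood at 7.06, 6.51, 7.19, 7.56 and 7.68 in wildtype tumors 1 to 5 against 3.51, 3.80 and 3.27 in PRC2 loss tumors 1 to 3. The gap between the lowest wildtype and the highest PRC2 loss tumor was 2.71, the widest among the 43 members. Orc1 was 12.8-fold lower (log2 difference -3.67, SE 0.40, limma adjusted p = 0.00051). Cdc6, the ATPase that recruits MCM, was at 8.75, 8.39, 9.28, 9.57 and 9.37 in wildtype against 6.11, 6.45 and 5.65 in PRC2 loss, 8.01-fold lower (limma adjusted p = 0.00054). Cdt1, its partner in loading, was 5.10-fold lower (9.52 ± 0.41, SD, n = 5, against 7.17 ± 0.40, SD, n = 3; limma adjusted p = 0.00078), again with no overlap. Orc6, the smallest subunit of the complex, moved least. Its wildtype values of 9.98, 9.41, 10.14, 9.96 and 10.13 overlapped the PRC2 loss values of 9.44, 9.18 and 9.28 at wildtype tumor 2. Orc6 was 1.54-fold lower (limma adjusted p = 0.032).

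The 6 subunits of the MCM ring, which work as 1 hexamer, fell by unequal amounts. Mcm5 was at 11.32, 10.64, 11.68, 11.66 and 10.95 in wildtype against 8.60, 8.95 and 8.65 in PRC2 loss, 5.72-fold lower (log2 difference -2.52, SE 0.26, limma adjusted p = 0.0004). Mcm2 was 3.91-fold, Mcm6 3.00-fold, Mcm3 2.45-fold and Mcm4 2.38-fold lower. Mcm7 had the smallest fall of the ring, 2.20-fold, from 11.40, 11.01, 12.10, 12.10 and 11.44 to 10.26, 10.36 and 10.80. None of the 6 subunits overlapped between the groups. The Mcm7 call was lost without PRC2 loss tumor 1 or 2 (limma adjusted p = 0.064 and 0.062) and with tumors that share a code averaged (0.052). The Orc6 call was lost without any single tumor other than wildtype tumor 2 (limma adjusted p from 0.055 to 0.105), and with the animal code averaged (0.088) or as a random block (0.066).

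All 6 helicase activation genes fell without overlap. Cdc45, the factor that joins MCM to start unwinding, was at 9.39, 8.73, 9.39, 9.78 and 9.99 in wildtype against 6.34, 6.35 and 6.40 in PRC2 loss. That is 8.54-fold lower (log2 difference -3.09, SE 0.29, limma adjusted p = 0.00029), and the 3 PRC2 loss tumors lay closer together than for any other member (SD 0.031). Mcm10, which helps to activate the loaded helicase, was 9.66-fold lower (8.97 ± 0.53, SD, n = 5, against 5.70 ± 0.34, SD, n = 3; limma adjusted p = 0.00045). The 4 subunits of GINS, a single tetramer, spread widely. Gins2 was 5.45-fold, Gins1 4.25-fold and Gins3 2.57-fold lower, whereas Gins4 was 1.35-fold lower (9.74, 9.60, 9.89, 9.82 and 9.90 against 9.17, 9.47 and 9.43; limma adjusted p = 0.037). The Gins4 call was lost without wildtype tumor 1, 3, 4 or 5 or PRC2 loss tumor 1 (limma adjusted p from 0.052 to 0.082) and with the code averaged (0.114) or as a random block (0.054), and centring on housekeeping genes turned its difference to 0.15. Gins2 shares 67.3% of its exonic bases with Gse1 on the other strand, and strand use in counting is not given, so its value is uncertain. Gse1 itself stood at 10.87 in wildtype and 11.14 in PRC2 loss.

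Polymerase and primase genes moved less, with a median log2 difference of -1.06. Of 7 members 5 fell and 2 did not pass. Pole, the catalytic subunit of the leading strand polymerase epsilon, was at 9.38, 9.04, 11.25, 10.41 and 10.20 in wildtype against 7.95, 8.34 and 8.68 in PRC2 loss. It was 3.32-fold lower (SE of the log2 difference 0.47, limma adjusted p = 0.022), with wildtype tumor 3 the highest. Its partner Pole2 was 3.21-fold lower (limma adjusted p = 0.0069). Pola1, the catalytic subunit of polymerase alpha, which starts each new strand with primase, was at 10.11, 9.45, 10.68, 10.22 and 10.27 in wildtype against 9.02, 8.73 and 8.78 in PRC2 loss, 2.46-fold lower (limma adjusted p = 0.0056). Its accessory subunit Pola2 did not pass: the wildtype values were 10.35, 9.45, 10.66, 10.60 and 10.51 and the PRC2 loss values 9.52, 10.03 and 10.43 (log2 difference -0.32, SE 0.31, limma adjusted p = 0.465). The groups overlapped for Pola2, and its difference turned to 0.26 with centring on housekeeping genes. Of the primase subunits, the catalytic Prim1 was at 9.23, 8.81, 9.66, 9.96 and 9.29 in wildtype against 7.94, 8.09 and 8.95 in PRC2 loss, which overlap, and was 2.09-fold lower (limma adjusted p = 0.032), and Prim2 had a log2 difference of -0.66 (SE 0.24, limma adjusted p = 0.058). Pold1, the catalytic subunit of the lagging strand polymerase delta, was 1.69-fold lower (limma adjusted p = 0.024).

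Single tumors decided several polymerase calls. Prim1 missed the threshold without any single tumor other than wildtype tumor 2 or PRC2 loss tumor 3 (limma adjusted p from 0.056 to 0.125). Pole missed it without wildtype tumor 4 or 5 or any PRC2 loss tumor (0.0501 to 0.096), and Pold1 without wildtype tumor 3 or 5 or PRC2 loss tumor 2 (0.0507 to 0.0525), all limma adjusted p. Averaging the code ended the calls of Prim1 (0.067), Pole (0.060) and Pold1 (0.078), and the code as a random block that of Prim1 (0.054), by limma adjusted p. Prim2 passed without wildtype tumor 2 (limma adjusted p = 0.007).

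The sliding clamp, its loader and the enzymes that join Okazaki fragments fell in 6 of 7 cases. Pcna, the clamp, was at 12.10, 11.94, 12.05, 12.12 and 11.89 in wildtype against 10.90, 10.95 and 10.89 in PRC2 loss. Both groups were tight (SD 0.10 and 0.033), and the 2.16-fold lower level had the smallest SE of the 43 members (0.099) and the smallest adjusted p (limma, 0.00024). Of the clamp loader subunits, Rfc4, Rfc5 and Rfc3 were 2.46-fold, 2.38-fold and 2.31-fold lower. Rfc2 did not pass (10.65, 10.32, 10.87, 11.41 and 10.48 against 9.64, 10.12 and 10.66; limma adjusted p = 0.145), and PRC2 loss tumor 3 lay inside the wildtype range. Fen1, the nuclease that trims Okazaki fragments, was at 10.37, 9.55, 10.52, 10.71 and 10.36 in wildtype against 8.16, 8.25 and 8.41 in PRC2 loss, 4.09-fold lower (limma adjusted p = 0.00088). Lig1, the ligase that seals them, was 2.73-fold lower (limma adjusted p = 0.0018). An antisense gene not in the table, Gm10143, covers 78.8% of the exonic bases of Fen1, which leaves its value uncertain too. Apart from Gins2, Fen1 and Chaf1a, the members Ccne2 (17.4% with Ints8) and Rfc2 (15.1% with Lat2) had the largest exonic overlaps with another gene. The Rfc3 call was lost with tumors that share a code averaged (limma adjusted p = 0.051).

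Of 4 nucleotide supply genes 3 fell, and Rrm1 did not pass. Tk1, the S phase thymidine kinase of the salvage pathway, was at 10.22, 9.45, 10.38, 11.39 and 10.36 in wildtype against 7.14, 7.56 and 6.56 in PRC2 loss, 9.66-fold lower (limma adjusted p = 0.0009). Tyms, which makes thymidylate from deoxyuridylate, was 4.23-fold lower (limma adjusted p = 0.0015). A pseudogene copy, Tyms-ps, is also in the table, at a mean of 2.87 in wildtype and 0.98 in PRC2 loss, and reads may be split between the copies. Ribonucleotide reductase makes the DNA precursors and has a large subunit, Rrm1, and a small subunit, Rrm2, that is made in S phase. Rrm2 was at 10.34, 9.48, 10.44, 11.01 and 10.31 in wildtype against 8.81, 8.46 and 7.63 in PRC2 loss, 4.06-fold lower (limma adjusted p = 0.0041). Rrm1 was at 11.85, 11.17, 11.94, 11.97 and 11.82 in wildtype against 11.36, 11.35 and 10.64 in PRC2 loss, and the groups overlapped at wildtype tumor 2 (log2 difference -0.63, SE 0.24, limma adjusted p = 0.068). Without that tumor Rrm1 passed (limma adjusted p = 0.017).

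All 3 genes that act on chromatin at the fork fell. Hells, a chromatin remodeller that supports DNA methylation, had the largest difference of the 43 members, 13.4-fold lower. It was at 10.33, 9.22, 10.97, 10.68 and 10.87 in wildtype against 6.58, 7.04 and 6.38 in PRC2 loss (log2 difference -3.75, SE 0.40, limma adjusted p = 0.00048). Chaf1a and Chaf1b are subunits of chromatin assembly factor 1, which deposits histones behind the fork. Chaf1a was 3.97-fold lower (limma adjusted p = 0.00057); it shares 52.5% of its exonic bases with Ubxn6 on the other strand, which stood at 10.61 and 10.68 in the groups, so its value is uncertain. Chaf1b was 2.16-fold lower (limma adjusted p = 0.037) with PRC2 loss tumor 3, at 8.09, above wildtype tumor 2, at 7.89. Leaving out any single tumor other than wildtype tumor 2 or PRC2 loss tumor 3 ended the Chaf1b call (limma adjusted p from 0.067 to 0.135), as did the code averaged (0.080) or as a random block (0.060).

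The E cyclins and E2F factors had the lowest median log2 difference of the 7 roles, -2.81, and 5 of 6 fell. Cyclin E activates Cdk2 at the start of S phase. Ccne1 was at 8.55, 8.12, 8.77, 8.60 and 8.48 in wildtype against 6.07, 6.22 and 4.80 in PRC2 loss, 7.01-fold lower (limma adjusted p = 0.001). Ccne2 was 8.40-fold lower (8.78 ± 0.54, SD, n = 5, against 5.71 ± 0.73, SD, n = 3; limma adjusted p = 0.0012). E2f1, an activator, was at 10.24, 9.69, 10.34, 10.48 and 10.41 in wildtype against 8.42, 8.23 and 7.18 in PRC2 loss, 4.88-fold lower (limma adjusted p = 0.0012). Its fellow activator E2f2 did not pass (8.81, 9.34, 8.61, 8.98 and 8.52 against 6.49, 8.17 and 8.58; limma adjusted p = 0.089). Its PRC2 loss tumors spread from below every wildtype tumor to inside the wildtype range (SD 1.11). The repressor E2f8 was at 9.40, 9.32, 10.25, 10.25 and 10.60 in wildtype against 6.48, 7.08 and 6.18 in PRC2 loss, 10.5-fold lower (limma adjusted p = 0.00046). E2f7 was 6.97-fold lower with a wide spread in both groups (SD 0.94 and 0.96; limma adjusted p = 0.0087). Among the E2F genes listed as members, those that fell were thus the activator E2f1 and the repressors E2f7 and E2f8. Outside the members, E2f3 was 3.01-fold lower (limma adjusted p = 0.0089), and E2f4, given below, fell as well. E2f5 and E2f6 did not pass (log2 differences -0.08 and 0.07, limma adjusted p = 0.783 and 0.769).

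**Figure D2:**
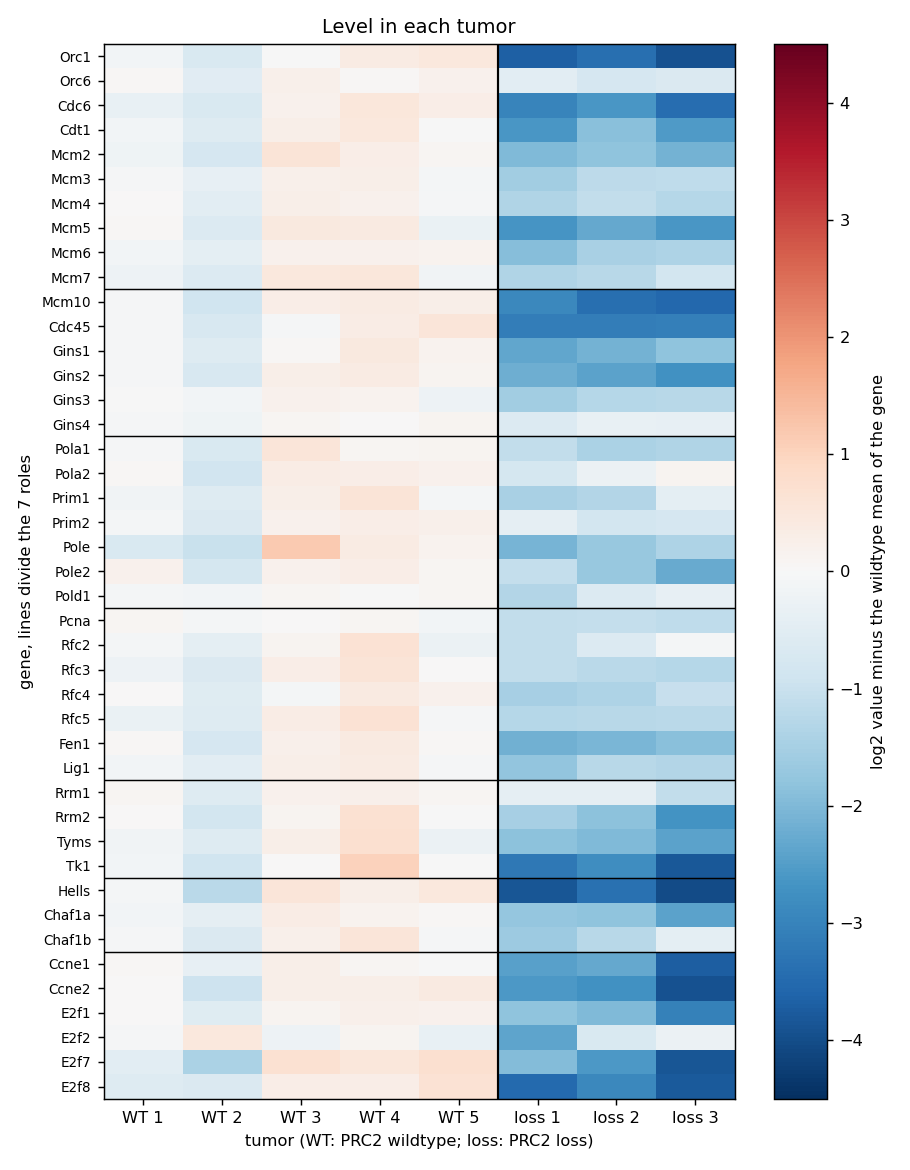
Rows are the 43 members by role, columns the 8 tumors, and color is the log2 value minus the gene's wildtype mean (blue lower, red higher). Wildtype tumor 2 is the palest or bluest wildtype column, and within PRC2 loss tumor 3 holds both the darkest cells, such as Hells and Ccne2, and some of the palest, such as Pola2 and Rfc2.

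Tumors within a group did not hold the members at 1 level. Wildtype tumor 2 was the lowest of the 5 wildtype tumors for 40 of the 43 members, and lay on average 0.60 below the wildtype mean of each gene. Wildtype tumor 4 was the highest for 24 members and wildtype tumor 3 for 11; these share a code and differed from each other by 0.10 on average. Wildtype tumors 1 and 2 share a code as well, and differed by 0.50. Wildtype tumor 2 also had the highest list means of the wildtype tumors for macrophage (12.85), T and NK cell (8.72), B cell (8.52), Schwann lineage (10.61) and myelin markers (8.24), and wildtype tumors 1 and 2 the highest for skeletal muscle genes (12.52 and 11.82, against 3.27 to 5.25). Wildtype tumor 1 was close to it for Schwann lineage markers (10.49, against 7.16 to 8.36 in wildtype tumors 3 to 5). The part of these cells in the level of the members was not tested. Without wildtype tumor 2, 40 members were lower, and without wildtype tumors 1 and 2 together, 39 (limma). Calls over all genes rose in these fits too, to 4313 and 4379 genes lower, against 4087 with all 8 tumors. The higher member counts are thus not particular to the members.

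PRC2 loss tumors had similar averages over the members, 8.01, 8.17 and 7.96, but single members differed between them in both directions. PRC2 loss tumor 3 was the lowest of the 3 for 19 members: Orc1, Cdc6, Mcm2, Mcm10, Gins2, Pole2, Pcna, Rfc3, Rrm1, Rrm2, Tyms, Tk1, Hells, Chaf1a, Ccne1, Ccne2, E2f1, E2f7 and E2f8. It was the highest for 16 members: Mcm3, Mcm6, Mcm7, Cdc45, Gins1, Gins3, Pola2, Prim1, Pole, Pold1, Rfc2, Rfc4, Rfc5, Fen1, Chaf1b and E2f2. The licensing, helicase, polymerase, clamp, chromatin and E2F roles each have members in both sets. Some of these ranks rest on small gaps. Mcm3 was at 9.51, 9.90 and 9.91 in PRC2 loss tumors 1 to 3, and Pcna at 10.90, 10.95 and 10.89. How often tumor 3 was at either end over all genes was not counted. By role mean, E cyclins and E2F factors averaged 6.78, 7.02 and 6.13 in PRC2 loss tumors 1 to 3 and nucleotide supply genes 8.90, 8.88 and 8.14. Polymerase and primase genes averaged 8.60, 8.66 and 8.86 and the clamp group 8.83, 8.99 and 9.12. Helicase activation genes (6.80, 6.82 and 6.81), origin licensing genes (8.34, 8.62 and 8.41) and chromatin genes (7.33, 7.60 and 7.45) did not put tumor 3 at either end. Differences between roles were not tested. Mitosis genes averaged 7.95, 7.85 and 6.61 in the same order. PRC2 loss tumor 3 also had the highest means of erythroid (14.28, against 8.96 and 10.83) and endothelial markers (12.69, against 11.55 and 11.73) in its group, and their part in this pattern was not tested. These are values of 1 tumor with no replicate.

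**Figure D3:**
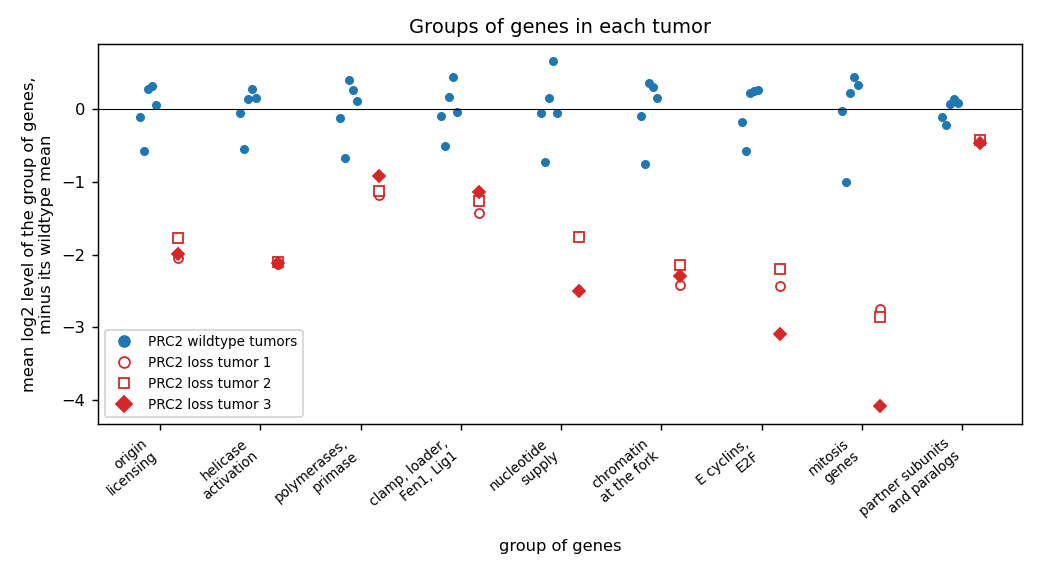
Points are the mean log2 level of each group of genes in each tumor minus its wildtype mean, for the 7 roles, the 20 mitosis genes and the 24 partner subunits and paralogs. All PRC2 loss points lie below 0, and PRC2 loss tumor 3 (filled diamonds) is lowest for E cyclins and E2F, nucleotide supply and mitosis genes and highest for polymerases and the clamp group.

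Other genes of the pathway, taken from lists by known function, were counted beside the members. Among 32 further replication and S phase factors 27 fell and none rose, with a median log2 difference of -1.41. Dscc1, part of the alternative clamp loader that aids cohesion, was 14.3-fold lower, at 7.21, 6.65, 7.68, 7.53 and 7.62 in wildtype against 3.43, 3.59 and 3.47 in PRC2 loss (limma adjusted p = 0.00034). Asf1b, a histone chaperone, was 9.02-fold lower (limma adjusted p = 0.00035), and Uhrf1, which maintains DNA methylation, 11.8-fold (limma adjusted p = 0.00022). All 20 mitosis genes fell, with a median of -3.21; Bub1, a spindle checkpoint kinase, was 16.8-fold, Aurka, a spindle kinase, 11.5-fold and Nusap1, a spindle protein, 5.42-fold lower. The medians of the members, the other replication factors, the mitosis genes and the partner list below were not tested against each other.

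Some partner subunits and paralogs of the members fell as well. Of the 24 that were measured, 11 fell and 2 rose, with a median log2 difference of -0.48. Over all genes tested, 19.6% fell. With tumors that share a code averaged, 5 of the 24 were lower, beside 10.2% of all genes. With centring on housekeeping genes 2 of the 24 were lower, beside 7.76% of all genes, so the list did not stand out in that fit. The list was not tested against all genes. The origin recognition subunits Orc2, Orc3 and Orc5 did not pass (log2 differences -0.26, -0.08 and -0.15; limma adjusted p = 0.233, 0.579 and 0.622), while Orc4 was 1.48-fold lower (limma adjusted p = 0.0089). Centring on housekeeping genes turned all 4 differences above 0. Those that fell with the smallest p were Rpa3, a subunit of the single-strand binding protein RPA (2.84-fold lower, limma adjusted p = 0.0016), the E2F family member E2f4 (1.94-fold lower, limma adjusted p = 0.002) and Mcm8, an MCM relative with a part in recombination (3.22-fold lower, limma adjusted p = 0.0031). The 2 that rose were Tfdp2, a dimer partner of E2F factors, and Rrm2b, the p53-inducible small subunit of ribonucleotide reductase. Tfdp2 was at 10.04, 9.63, 10.31, 10.45 and 10.58 in wildtype against 11.53, 11.03 and 11.08 in PRC2 loss, 2.02-fold higher (limma adjusted p = 0.011). Its paralog Tfdp1 went the other way, 2.04-fold lower (limma adjusted p = 0.012). Rrm2b was at 9.67, 9.89, 9.52, 9.66 and 9.75 in wildtype against 10.08, 10.09 and 10.06 in PRC2 loss, 1.30-fold higher (limma adjusted p = 0.040).

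Whether a member fell more than a related gene was tested on the log2 difference between both genes in the same tumor, in which a shift of all values of a tumor cancels. For 6 pairs, all 56 ways to split the tumors were enumerated in an exact permutation test (two-sided), with p adjusted over the pairs. Orc1 minus Orc2 went from -3.33 ± 0.28 (SD, n = 5) to -6.74 ± 0.19 (SD, n = 3), a change of -3.41 (exact p = 0.0179, the smallest this design allows, adjusted p = 0.0357). Rrm2 minus Rrm2b went from 0.62 ± 0.65 to -1.78 ± 0.60 (SD), a change of -2.40 with the same exact and adjusted p. E2f1 minus E2f4 went from -1.03 ± 0.15 to -2.36 ± 0.64 (SD), a change of -1.33, again at that smallest exact p. The groups did not overlap for these 3 pairs, nor for Rfc4 minus Rfc1.

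The other 3 pairs did not pass after adjustment. Rfc4 minus Rfc1, the large subunit of the clamp loader, changed by -0.77 (exact p = 0.0357, adjusted p = 0.0536). Prim1 minus Prim2 changed by -0.40 (exact p = 0.25, adjusted p = 0.286), with PRC2 loss tumors at -1.40, -0.84 and -0.06. Ccne1 minus Ccne2 changed by 0.26 (exact p = 0.286, adjusted p = 0.286). With 1 tumor left out, no pair passed in 7 of 8 cases, and 4 passed without wildtype tumor 2 (smallest exact adjusted p from 0.0429 to 0.0952). Fewer splits raise the smallest p that can be reached. Since the members were known to be lower, the direction of these changes was partly set by the choice of pairs.

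**Figure D4:**
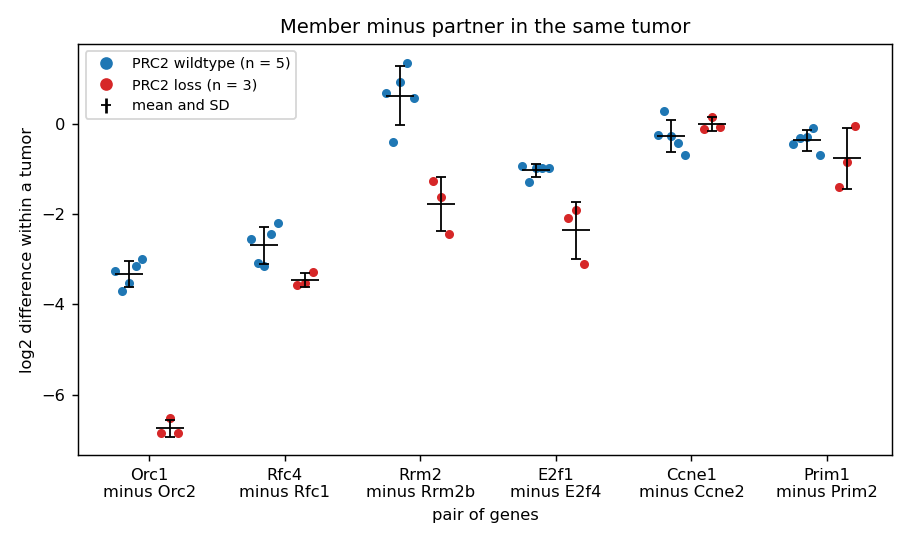
Points are the log2 difference between a member and a related gene in the same tumor for 6 pairs, blue for PRC2 wildtype (n = 5) and red for PRC2 loss (n = 3), with the mean and SD in black. The groups are apart for Orc1 minus Orc2, Rfc4 minus Rfc1, Rrm2 minus Rrm2b and E2f1 minus E2f4, and they overlap for Ccne1 minus Ccne2 and Prim1 minus Prim2.

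Markers of other cells moved between the groups beside the members, and their part in the lower replication genes was not tested. The log2 of the summed level of 10 macrophage markers was 15.66 to 16.79 in wildtype and 14.87 to 15.27 in PRC2 loss, with 7 lower. For 9 T and NK cell markers it was 10.65 to 12.41 and 8.13 to 9.78, with 8 lower, and for 8 B cell markers 9.36 to 11.73 and 7.24 to 8.99, with 2 lower. All 10 myelin genes rose, from a summed level of 12.33 to 13.48 to one of 17.31 to 18.22. Endothelial markers rose in 8 of 10 cases (13.39 to 14.14 against 15.33 to 16.17) and erythroid genes in 5 of 6 (9.90 to 12.36 against 13.08 to 18.64). Of 8 fibroblast markers 2 rose (19.01 to 19.94 against 19.34 to 20.10), and none of 10 skeletal muscle genes (7.74 to 16.33 against 7.85 to 12.79) or 8 adipocyte genes (11.32 to 15.26 against 12.06 to 14.86) passed the test in either direction. Myh2, Pax5 and Lep were among the markers listed at 0 in at least 1 tumor. The PRC2 loss samples are labelled with a nerve, right paraspinal for tumor 1 and left and right sciatic for tumors 2 and 3, and the wildtype samples are not.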

How the data were processed

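The deposited file holds log2 gene counts, quantile-normalized by the authors as its name states, and its column names were matched to the tumors' descriptions. Poly-A RNA was sequenced from TruSeq libraries, per the labels' protocols. Per the submitters' processing notes, Trim Galore, STAR 2.6, Partek 7.0 and the build mm10 were used. The annotation, counting method, strand use, filters and offset before the log were not given in the sources used here. Quantile normalization removes library totals, so depth is unknown and no counting interval is given. Folds are 2 raised to the log2 difference. For low genes they may understate the change, which cannot be checked without the offset.

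The 136 genes with the same value in every tumor were dropped and the other 20807 tested with limma 3.58.1 in R 4.3.3 (variances trended on the mean, two-sided, Benjamini-Hochberg, threshold 0.05, no pseudocount). The members and lists were chosen with earlier results of these data known. All members are named; of the other pathway lists, the 3 with the smallest p in each direction, plus the pair partners. Orc3 to Orc5, E2f3, E2f5, E2f6, Tfdp1 and Gap43 fall outside this rule and were named after their values were seen. Of the promoters with a match, those with the smallest p in each role were printed, at most 2 for origin licensing and for E cyclins and E2F factors. The further motifs and the fit without wildtype tumors 1 and 2 were chosen after seeing the data. Exon overlaps came from GENCODE M21 (mm10). The titles call the tumors biological replicates. This comparison was also tested on simulated data of 20807 genes, with 50 genes at each log2 shift. For shifts of 1, 2, 3 and 4, 44%, 72%, 96% and 96% were recovered, with 6 calls among 20607 unchanged genes. In the tumors 7424 genes passed, far more than were shifted there, so these shares describe the simulation only. No share is given for genes of low level, so the shares do not cover the 13 members with a mean below the median of all genes. Nor are the shares given for tumors that share a code, so they do not show how sharing affects the calls. Alternatives were a filter on low genes, pseudocounts of 1 and 16, other centring, other variance priors, array weights, animal codes averaged or as a block, a replicate block, and each tumor left out. The values of 1 marker gene are not reported here.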

Additional observations from a re-analysis of the deposited data

Results flagged for a closer look

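In 5 members 1 wildtype tumor lay far from the other 4, and it was wildtype tumor 2, at the low end, each time. Its Orc6 value was 9.41, with the others between 9.96 and 10.14. Pola2 was 9.45 there and 10.35 to 10.66 elsewhere. The Pole2 value was 7.98, against 8.86 to 9.06. Rrm1 was 11.17, against 11.82 to 11.97. Ccne2 was 7.84, against 8.80 to 9.18. The test used flags about 1 in 20 groups of values by chance, and the 43 genes share the same 5 tumors, so the flags are not independent.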

How the results depend on the processing

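Of the 43 members, 12 passed as lower in every fit that tested them: Orc1, Cdc6, Mcm5, Mcm6, Mcm10, Cdc45, Gins2, Pcna, Fen1, Tk1, Hells and E2f8. These are the members lower in the replicate block fit, in which 3.72% of all genes were lower. Cdt1, Mcm2, Mcm3, Mcm4, Gins1, Gins3, Pole2, Rfc4, Lig1, Rrm2, Tyms, Chaf1a, Ccne1, Ccne2, E2f1 and E2f7 missed only in that fit. The share of all genes lower in every fit was not counted. When genes with a mean below the median were dropped, 30 members remained in the test, of which 25 were lower (median log2 difference -1.29), and 2533 genes were lower and 1715 higher among all genes. Centring on housekeeping genes gave a member median of -1.10, 2 partner subunits and paralogs lower, 17 other replication factors lower, and 1614 genes lower and 7596 higher. It turned the differences of Gins4 (0.15), Pola2 (0.26), Orc2 (0.32), Orc3 (0.50), Orc4 (0.015), Orc5 (0.43) and Rfc1 (0.053) above 0. With the animal code as a random block 34 members were lower, against 15.5% of all genes. With animal codes averaged, 30 members, 5 partners, and 2113 genes in each direction passed. No pair difference could pass there, because the 10 splits of the averaged codes allow no exact p below 0.1. That fit therefore does not test the pairs.

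The replicate numbers in the titles do not pair the tumors: deviations of same-numbered tumors correlated at -0.16, 0.095 and -0.048. The fit with the replicate number as a block left 12 members, 0 partners (9 at an unadjusted p below 0.05 in limma), 10 other replication factors and 5 mitosis genes lower, and 774 genes lower and 1129 higher; Orc5 turned to 0.0030. Not every tumor correlated best with its own number. Leaving out 1 tumor gave between 32 and 40 members lower, against 14.2% to 20.7% of all genes, and between 0 and 4 pairs passing. No member rose in any fit run. Depth is unknown, so no limit of detection is given.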

Other observations

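Adding TTTCGCGC and TTTGCCGC to the E2F letters searched raised the matches to 10 of 35 members (28.6%), with Orc1 and Rfc3 joining, and to 583 of 27025 genes (2.16%). The letters CCAAT, the core of the site read by the factor NF-Y, were found within 250 bases before the start, on either strand, for 20 of 35 members (57.1%) and 10133 of 27025 genes (37.5%). The letters TTTGAA, a form of the cell cycle homology region found in many mitosis genes, were found for 6 of 35 members (17.1%) and 4934 of 27025 genes (18.3%). The median log2 difference was -1.47 for members with CCAAT and -2.03 for those without. These shares are descriptions, and base composition was not matched.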
